A study of Caenorhabditis elegans with 27 samples.

Results

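The siRNAs described here are those of the F-box genes of *Caenorhabditis elegans* named *fbxa*, *fbxb* or *fbxc* with a number. The WBcel235 annotation holds 322 such protein-coding genes, 170 *fbxa*, 104 *fbxb* and 48 *fbxc*. Counts of siRNAs were at hand for 208 of them. A filter on low counts (edgeR's filterByExpr, at least 10 counts in a library of median size in as many libraries as the smallest genotype has) kept 135, namely 60 *fbxa*, 57 *fbxb* and 18 *fbxc*, among 9645 small RNAs (sRNAs) and 7184 siRNAs kept in all. The table lists 20150 sRNAs. The members were chosen by name and level and not by any difference between genotypes. A member of low level can pass the filter through a genotype in which it is high, so the counts of kept members below are descriptions. At the filter's limit of 1.49 CPM in at least 3 libraries, 112 of the 135 pass both on the libraries that carried *pup-1* alone and on those that lacked it alone, 13 only on the former, 4 only on the latter and 6 only on both together. For the members of the last 3 kinds, values are described without a test.

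Small RNA was sequenced from whole adult hermaphrodites, 1 day into adulthood and raised at 22°C, of wild type (N2, 6 libraries) and of 7 strains lacking poly(U) polymerases (3 libraries each). The single mutants were *pup-1(tm1021)*, *pup-2(tm4344)*, *pup-3(tm5089)* and *pup-4(om141)*. The allele *pup-1/-2(om129)*, null for both genes, gave the *pup-1/-2(0)* double mutant. Crossed with *pup-3(0)* it gave the triple mutant, *pup-3(0)* with *pup-1/-2(0)*, and with *pup-4(0)* added the quadruple mutant, so 4 strains lacked *pup-1*. Strains that carried *pup-1*, *pup-2* or *pup-1/-2* alleles were kept over the *qC1gfp* balancer, and the animals sequenced were homozygous offspring of homozygous mothers. All strains were grown side by side and sampled in the F2 generation. The study's methods call the libraries independent biological replicates and do not say whether each came from a culture of its own, so p-values measure the spread between these libraries. Whole animals hold many tissues, and fewer cells of a tissue cannot be told apart from less siRNA per cell.

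F-box proteins are the substrate receptors of SCF ubiquitin ligases. The F-box binds a Skp1-related adaptor (SKR), which sits on a cullin scaffold with a RING subunit, and the rest of the protein chooses what is ubiquitylated. Nematodes carry a large and fast evolving set of F-box genes, many of them in tandem clusters, and most have no known substrate. Their siRNAs are made by RNA-dependent RNA polymerases, which copy an mRNA into short antisense RNAs that Argonaute proteins such as the WAGOs and CSR-1 bind. PUP-1, also named CID-1 and CDE-1, adds uridines to the 3′ ends of such siRNAs. The siRNAs of a gene are reported here as the reads antisense to its coding sequence, so their level is not the level of the mRNA.

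Levels are given as CPM, read counts relative to library sizes that edgeR's TMM method scaled. Library totals ran from 972048 to 17562388 counts, and 3 counts, taken as the floor of a library, were 0.144 to 3.74 CPM. Wild-type replicate 1 stood apart, with a mean correlation to the other wild-type libraries of 0.822 (Pearson's r on log2 CPM), against 0.917 to 0.940 for the other 5. Wild-type replicates 5 and 6 were most like *pup-4(0)* replicate 2, at r = 0.9897 and 0.9849, and their mean correlation with the *pup-4(0)* libraries was 0.988 and 0.984, against 0.940 and 0.933 with the other wild-type libraries. Replicates 5 and 6 also had the highest mean correlation with the quadruple mutant, at 0.934 and 0.921, against 0.843 to 0.902 for wild-type replicates 1 to 4. For its U-tail filter, the study set 3 mutant replicates beside 3 wild-type replicates handled in parallel, and its methods do not number them. The part of this likeness in the counts of calls in *pup-4(0)* and the quadruple mutant was not tested. Wild-type replicate 1 also held the highest wild-type level of several abundant members, so values that turn on it are given without it. The row of *pup-1*, listed as *cid-1*, counts siRNAs over the whole gene and held 954 to 1559 CPM in wild type and 1059 to 1171 CPM in *pup-1(0)*. The *pup-3* row held 34.5 to 87.0 CPM in wild type and 157 to 187 CPM in *pup-3(0)*. Such rows neither show nor exclude a deletion. Rows for *pup-2* and for *pup-4* were not used here. The miRNAs *mir-35* to *mir-41*, markers of oocytes and embryos, were all listed, and their summed level ran from 22630.2 to 93576 CPM in wild type, from 12101 to 89061 CPM in *pup-1(0)*, from 53823 to 105666 CPM in *pup-2(0)* and from 63293 to 129285 CPM in *pup-3(0)*. It was 46768 to 50725 CPM in *pup-4(0)*, 23666 to 30663 CPM in the double, 42091 to 56789 CPM in the triple and 21630 to 32206 CPM in the quadruple mutant. *mir-1*, a miRNA of muscle, was at 3100.3 to 91642 CPM (median 12243) in wild type, 1209 to 7317 in *pup-1(0)*, 1633 to 7919.9 in the triple, 8952 to 13910.3 in the double and 8661 to 17234 in the quadruple mutant. It was at 1806 to 14090.4 CPM in *pup-2(0)*, 5858 to 20974 in *pup-3(0)* and 9767 to 16554 in *pup-4(0)*. *let-7*, a miRNA of late larvae and adults, was at 872 to 9765 CPM (median 1953) in wild type, 837 to 1027 in *pup-1(0)*, 1131 to 5884 in the double, 1115 to 1449 in the triple and 1608 to 2539 in the quadruple mutant. It ran from 1167 to 2555 CPM over the other single mutants. *lin-4*, of the same stages, was at 247 to 912 CPM in wild type and overlapped that range in each of the 7 strains. The part of these markers in the results below was not tested.

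In wild type, most of these siRNAs were scarce and a few were abundant. The median mean level was 11.3 CPM, against 23.7 CPM for all siRNAs tested. Per kilobase of coding sequence the medians were 13.3 and 22.0 CPM. By family, the median per kilobase was 16.3 CPM for *fbxa*, 6.03 CPM for *fbxb* and 24.0 CPM for *fbxc*. Of the 135 members, 64 were under 10 CPM, 50 between 10 and 100 CPM and 21 at 100 CPM or more. The most abundant member held 18.4% of the summed F-box level, the first 4 held 51.0% and the first 8 held 70.1%. These shares are of wild-type means, which include the outlying replicate 1. The first share is that of *fbxb-98*, which ranked below *fbxb-14* by median.

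The 8 most abundant were *fbxb-98*, *fbxb-14*, *fbxa-172*, *fbxa-107*, *fbxb-104*, *fbxc-7*, *fbxb-100* and *fbxb-75*. Per kilobase, their order was *fbxb-14* with 4525 CPM, *fbxb-98* with 2888, *fbxa-107* with 1317, *fbxb-104* with 1260.5, *fbxa-172* with 882, *fbxc-7* with 881, *fbxb-100* with 705 and *fbxb-75* with 520.3. The spread over wild-type libraries was wide for some of them. *fbxb-75* siRNAs ran from 144 to 1772 CPM (median 212) in wild type, and the highest value, in replicate 2, lay far above the next. Of the members kept, 9 overlap another protein-coding gene on the same strand, among them *fbxb-14* with *W08F4.12*, *fbxa-118* with *fbxa-194*, *fbxb-18* with *fbxb-19* and the pair *fbxb-16* and *fbxb-20*. How reads that match several near-identical genes were counted is not given in the sources used here, so reads may be shared between such neighbours and between close paralogs.

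Summed over the 135 members, the F-box siRNA level was lower in each strain that lacked *pup-1*. The 6 wild-type libraries held 14206 to 23102 CPM, with a median of 16037. The sums were 9023 to 10387 CPM in *pup-1(0)*, 8908 to 9307 in the double, 8963 to 10648 in the triple and 7832 to 8213 in the quadruple mutant. All 12 of those libraries lay below all 6 of wild type.

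The other single mutants lay elsewhere. Their sums were 14544 to 21329.98 CPM in *pup-2(0)*, 16994 to 20610.1 in *pup-3(0)* and 12757 to 13465 in *pup-4(0)*. The *pup-2(0)* and *pup-3(0)* libraries lay within the wild-type range, and the 3 *pup-4(0)* libraries lay just below the lowest wild-type library. As a share of siRNA reads, F-box siRNAs made up 2.15 to 3.01% in wild type and 2.09 to 2.17% in *pup-4(0)*, against 1.17 to 1.54% over the 4 strains that lacked *pup-1*. Without the 8 most abundant members the sums were 4238 to 6611 CPM in wild type and 2962 to 3327 CPM in *pup-1(0)*, 2638 to 2793 in the double, 2771 to 2869.9 in the triple and 3008 to 3098 in the quadruple mutant. These sums were not tested, as the members were chosen with earlier results known.

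**Figure D1:**
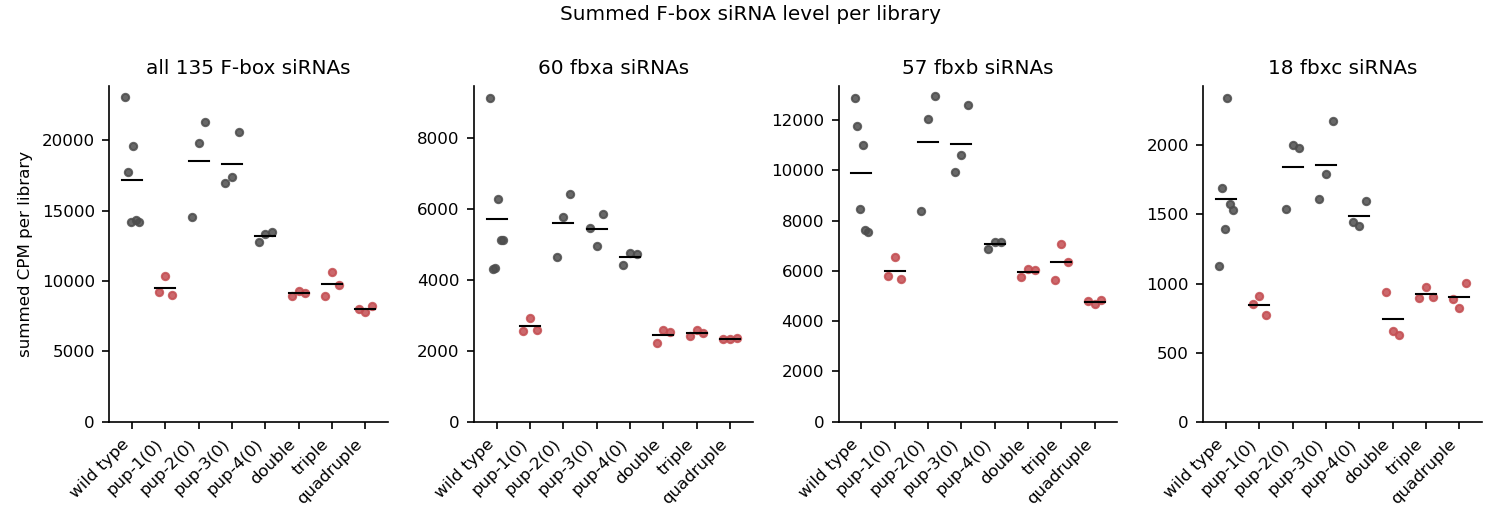
Summed F-box siRNA level (CPM, axis from 0) in each of the 27 libraries, for all 135 members and for each family. Points are libraries, bars are genotype means, and red marks the 4 strains that lacked *pup-1*, whose 12 libraries lie at 7832 to 10648 CPM for all members, below the lowest wild-type library at 14206.

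Gene by gene, an siRNA was called where edgeR's quasi-likelihood test gave an adjusted p below 0.05 (Benjamini-Hochberg over all 9645 sRNAs) and the log2 fold change was above 1 or below -1. By this rule, 53 of the 135 F-box siRNAs fell and 2 rose in *pup-1(0)*. Over all sRNAs tested, 13.5% fell and 7.44% rose in the same comparison, and 39.3% of the F-box siRNAs fell. In the double mutant 61 fell and 3 rose, against 12.5% and 8.65% of all sRNAs. In the triple mutant 51 fell and 1 rose, against 11.9% and 5.73%. In the quadruple mutant 42 fell and 1 rose, against 12.9% and 8.3%. Among the 112 members that pass the filter either way, 44, 52, 41 and 34 fell in *pup-1(0)*, the double, the triple and the quadruple mutant, against 13.1, 12.4, 11.6 and 13.1% of all sRNAs that do, and 2 rose in at least 1 of these strains. Among siRNAs alone, 16.4% fell in *pup-1(0)*, 16% in the double, 15.1% in the triple and 16.1% in the quadruple mutant.

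The median log2 fold change of the F-box siRNAs was -1.07 in *pup-1(0)* (-1.04 with members without a count at their bound), -1.20 in the double, -0.97 in the triple and -0.71 in the quadruple mutant. For all siRNAs tested the medians were -0.21, -0.12, -0.17 and -0.12. The counts depended on the wild-type libraries used, as with replicates 1 to 3 alone 34, 42, 41 and 29 F-box siRNAs fell in the 4 strains in the same order, and with replicates 4 to 6 alone 79, 78, 62 and 54 fell. The counts of rises were 3, 3, 7 and 10 with the former and 2, 5, 2 and 2 with the latter. Deviations of same-numbered libraries of the quadruple mutant and wild type correlated at 0.429, 0.162 and 0.191. Replicate 3 of the quadruple mutant was closer to wild-type replicate 2, at 0.315, so a pairing by number is uncertain. The fit with the replicate number as a block, which rests on wild-type replicates 1 to 3, is given beside the quadruple mutant's results where it changes them. In that fit 28 members fell and 10 rose in the quadruple mutant, with a median log2 fold change of -0.47.

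All 3 *pup-1(0)* libraries lay below all 6 wild-type libraries for 36 members, and for 12.1% of all sRNAs. The double mutant had 45 such members (12% of all sRNAs), the triple 42 (12.9%) and the quadruple 37 (15.6%). In 25 members, or 18.5%, the libraries of all 4 strains lay below wild type, against 8.1% of all siRNAs tested.

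**Figure D2:**
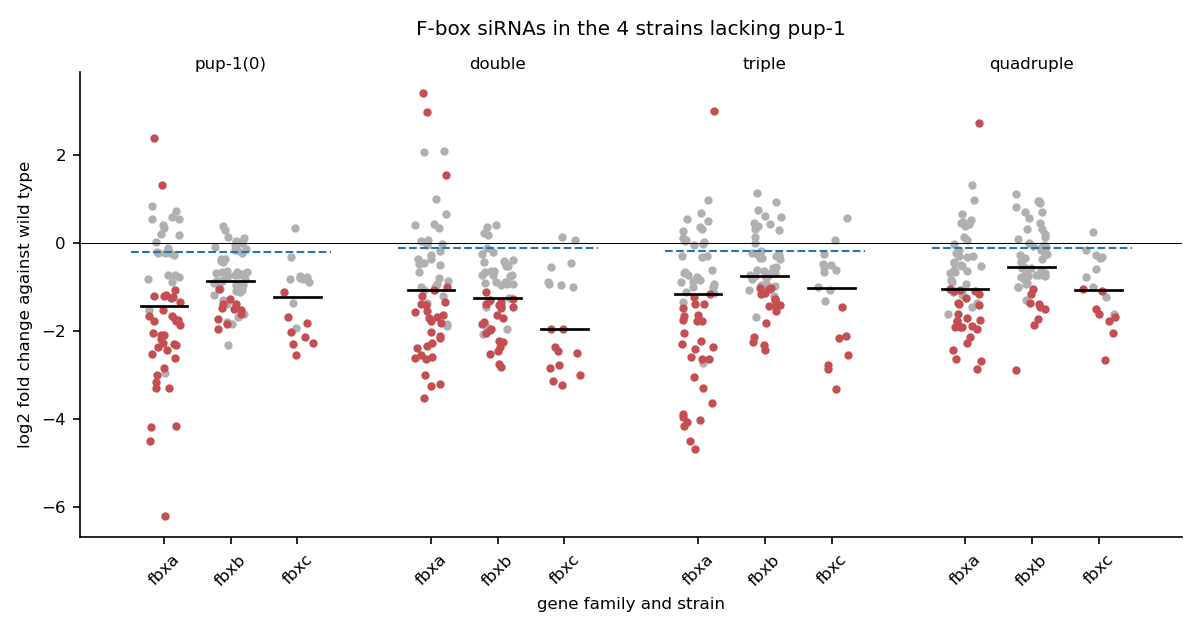
Log2 fold change against wild type of each F-box siRNA, by family, in the 4 strains that lacked *pup-1*. Members that passed the filter only on libraries that carried, or only on libraries that lacked, *pup-1* are included as a description. Red points are called siRNAs, grey points are not called, black bars are family medians and the dashed blue line is the median of all siRNAs tested; every black bar lies below the dashed line of its strain.

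By family, the counts ran as follows. In *pup-1(0)*, 34 of 60 *fbxa* siRNAs fell, with a family median log2 fold change of -1.42, and 11 of 57 *fbxb* siRNAs fell, with a median of -0.85. In the double mutant 27 *fbxa* and 24 *fbxb* siRNAs fell, with medians of -1.07 and -1.24. In the triple mutant the numbers were 28 and 16, and in the quadruple mutant 25 and 9. Of the 18 *fbxc* siRNAs 8, 10, 7 and 8 fell in *pup-1(0)*, the double, the triple and the quadruple mutant, with medians of -1.23, -1.95, -1.03 and -1.07. Over all sRNAs, 13.5, 12.5, 11.9 and 12.9% fell in these strains. The family counts include members that passed the filter only on libraries that carried *pup-1*, of which 8, 8, 10 and 7 fell. In *pup-1(0)* these were *fbxc-33* and otherwise *fbxa* siRNAs, with none of *fbxb*. *fbxa-89*, which also fell there, passed only on both sets of libraries together. The counts are therefore a description, and no difference between families was tested.

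To compare like levels, members were grouped by their mean over all 27 libraries, which put 69 under 10 CPM, 45 between 10 and 100 CPM and 21 at 100 CPM or more. Of the last 21, 9 fell in *pup-1(0)*, 9 in the double, 9 in the triple and 8 in the quadruple mutant. Of all siRNAs at 100 CPM or more, 8.89, 10.2, 9.78 and 13.9% fell in the same comparisons. In *pup-1(0)* the median log2 fold change of these 21 members was -0.82, while that of all siRNAs of this level was 0.41.

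*fbxb-98* (chrII:1862634-1863782, plus strand) had the highest mean siRNA level of the set in wild type, where its libraries ran from 2243 to 5924 CPM (median 2477). The highest value was in replicate 1, with at most 3530 CPM in the other libraries, and by median *fbxb-14* ranked above it. *fbxb-98* siRNAs were at 1005, 1221 and 1126 CPM in the *pup-1(0)* libraries, 1196, 1310.3 and 1287 in the double, 1356, 1553 and 1427 in the triple and 1263, 1197 and 1245 in the quadruple mutant. The 12 libraries that lacked *pup-1* lay below the lowest wild-type library, and those of the other single mutants, at 2266 to 3781 CPM, lay within the wild-type range. By edgeR with Benjamini-Hochberg adjustment, the log2 fold change was -1.50 (SE 0.23, adjusted p = 1.73e-05) in *pup-1(0)*, -1.33 (SE 0.23, adjusted p = 8.72e-05) in the double mutant, -1.13 (SE 0.23, adjusted p = 4.47e-04) in the triple and -1.36 (SE 0.23, adjusted p = 5.52e-05) in the quadruple. The call in the triple mutant was lost without wild-type replicate 1, whose level was the highest, at a log2 fold change of -0.86. With replicates 2 and 3 of 6 genotypes only, it was -0.88 in the double and -0.69 in the triple mutant, and with total counts as the only scaling -0.80 in the triple and -0.99 in the quadruple mutant, which were then not called.

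*fbxa-172* (chrV:17559246-17561612, plus strand) siRNAs fell further. In wild type they were at 1087 to 2915 CPM (median 1171). *fbxa-172* siRNAs were at 209.5, 479 and 351 CPM in the *pup-1(0)* libraries, 223, 316 and 305 in the double, 300.3, 408 and 357 in the triple and 238, 229.9 and 217 in the quadruple mutant. All of these libraries lay far below wild type, while the *pup-2(0)* and *pup-3(0)* libraries overlapped its range and the *pup-4(0)* libraries, at 918, 1002 and 976 CPM, lay just below it. In *pup-1(0)* the edgeR log2 fold change was -2.08 (SE 0.31, adjusted p = 1.21e-05), in the double -2.38 (SE 0.32, adjusted p = 3.61e-06), in the triple -2.05 (SE 0.31, adjusted p = 1.96e-05) and in the quadruple mutant -2.69 (SE 0.32, adjusted p = 7.14e-07), each adjusted by Benjamini-Hochberg. These calls held without any single library.

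*fbxa-107* (chrV:18123939-18125235, plus strand) siRNAs were at 678 to 2799 CPM (median 1001) in wild type. *fbxa-107* siRNAs were at 368, 387 and 340.5 CPM in the *pup-1(0)* libraries, 268, 457 and 480.3 in the double, 438, 509 and 491 in the triple and 367, 347 and 303 in the quadruple mutant. Those 12 libraries lay below wild type, and the libraries of the other single mutants, at 884 to 1308 CPM, did not. edgeR gave a log2 fold change of -1.78 (SE 0.32, adjusted p = 1.22e-04) for *pup-1(0)*, -1.64 (SE 0.32, adjusted p = 3.04e-04) for the double, -1.38 (SE 0.31, adjusted p = 0.00148) for the triple and -1.88 (SE 0.32, adjusted p = 6.86e-05) for the quadruple mutant (Benjamini-Hochberg). Without wild-type replicate 1 the log2 fold change in the triple mutant was -0.98 and the call was lost. With replicates 2 and 3 of 6 genotypes only, the calls in *pup-1(0)*, the double and the triple mutant were lost, at -0.98, -0.59 and -0.51.

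**Figure D3:**
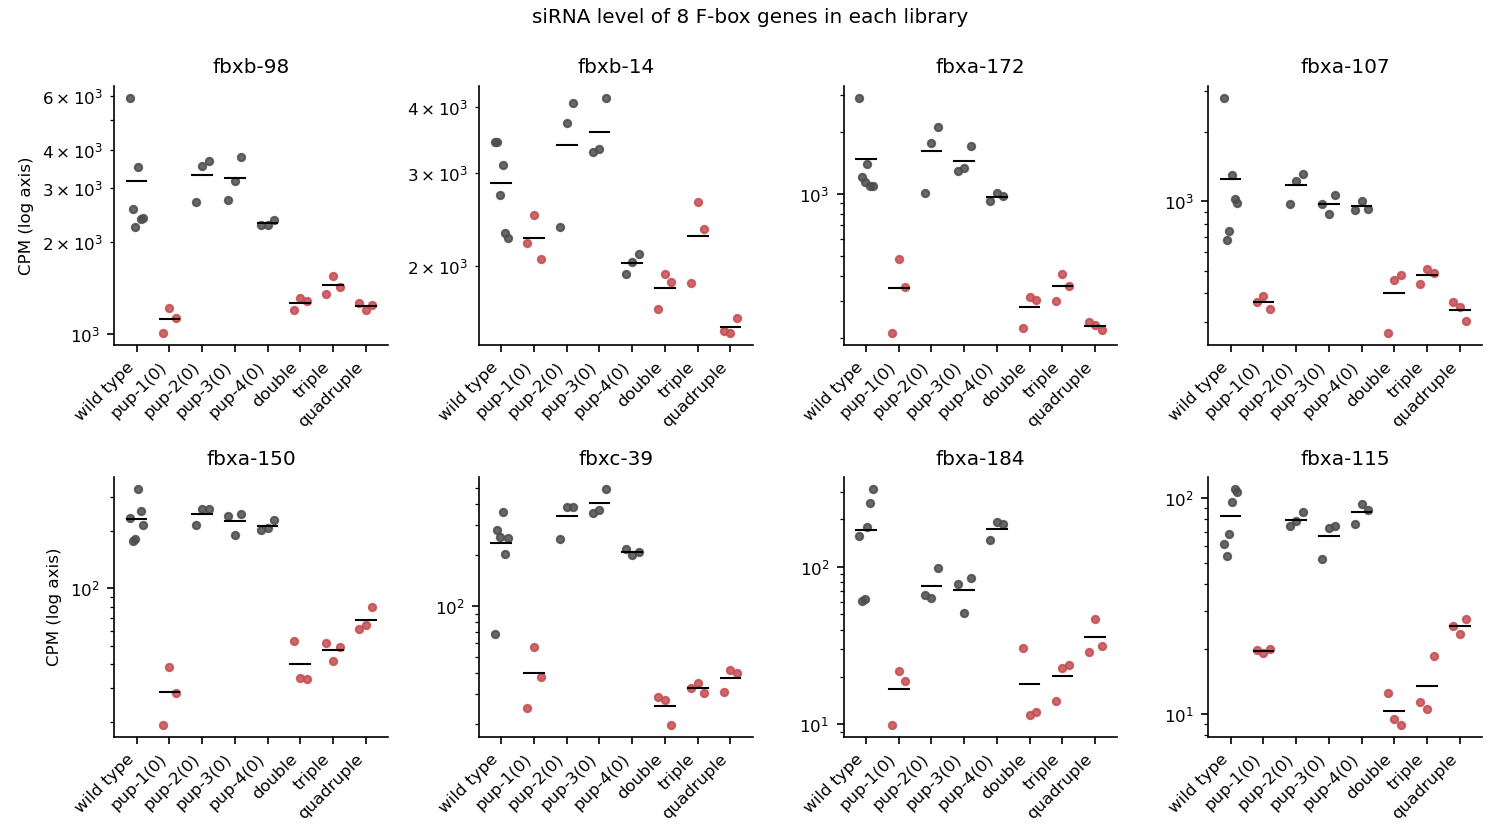
siRNA level of 8 F-box genes in each of the 27 libraries (CPM, log axis), chosen after their values were seen. Points are libraries, bars are genotype means and red marks the 4 strains that lacked *pup-1*; in 7 of the 8 panels all red points lie below all wild-type points, and *fbxb-14* is the exception.

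*fbxb-104* (chrII:3475630-3477271, minus strand) siRNAs were called lower in the quadruple mutant and in none of the other 6 comparisons with wild type. They were at 778 to 1922 CPM (median 1291) in wild type, 1059.9, 1030.5 and 726 CPM in *pup-1(0)*, 1449, 1427 and 1486 in the double and 948, 1109 and 842 in the triple mutant, all overlapping wild type. The quadruple mutant held 502, 463 and 479.6 CPM, below every wild-type library, a log2 fold change of -1.37 (SE 0.23, adjusted p = 3.68e-05) by edgeR. The *pup-4(0)* libraries, at 699, 771 and 683 CPM, also lay below wild type, and that comparison did not pass the test (adjusted p = 0.349, edgeR). Between the triple and the quadruple mutant the log2 difference was -1.0 (SE 0.25, adjusted p = 0.0566) by edgeR, which did not pass either.

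The other abundant members did not pass in any of the 4 strains. With the replicate block, *fbxb-14* and *fbxb-75* were called lower in the quadruple mutant, at log2 fold changes of -1.07 and -1.93 (edgeR adjusted p = 3.66e-05 and 0.0012). For *fbxb-75* the block fit includes wild-type replicate 2, at 1772 CPM against 144 to 586 CPM in the other wild-type libraries. The quadruple mutant mean of *fbxb-75*, 209 CPM, lay within the range of those other libraries. The part of replicate 2 in this call was not tested. *fbxb-14* siRNAs had 2259 to 3443 CPM (median 2914) in wild type and 1489 to 2643 CPM over the 12 libraries that lacked *pup-1*. The double and quadruple mutant libraries lay below the wild-type range and the *pup-1(0)* and triple mutant libraries overlapped it. *fbxc-7* siRNAs had 575 to 1297 CPM (median 775) in wild type and 355 to 654 CPM in those 12 libraries. Among the 4 strains, only *pup-1(0)*, at 537, 545 and 451 CPM, lay wholly below its wild-type range. *fbxb-100* siRNAs had 373 to 905 CPM (median 649.9) in wild type and 337 to 656 CPM in the same 12 libraries, which overlapped. *fbxb-75* siRNAs, uneven in wild type, were at 197 to 434 CPM there. *fbxa-220* siRNAs, chosen here after their values were seen, had 219 to 320.5 CPM (median 293) in wild type and 264 to 379.98 CPM in the 12 libraries.

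Several members of intermediate level fell in all 4 strains. *fbxa-150* (chrV:20522598-20524512, plus strand) siRNAs were at 178 to 331 CPM (median 225) in wild type. *fbxa-150* siRNAs were at 19.2, 38.6 and 28.2 CPM in the *pup-1(0)* libraries, 52.8, 34.01 and 33.5 in the double, 51.6, 41.4 and 49.4 in the triple and 61.2, 64.5 and 79.5 in the quadruple mutant. Wild type and these strains did not overlap, and the other single mutants, at 191 to 261 CPM, were within the wild-type range. Against wild type, the log2 fold change was -2.99 (SE 0.23, adjusted p = 8.66e-10) in *pup-1(0)*, -2.53 (SE 0.22, adjusted p = 1.15e-08) in the double, -2.30 (SE 0.22, adjusted p = 4.11e-08) in the triple and -1.77 (SE 0.21, adjusted p = 5.50e-07) in the quadruple mutant (edgeR, Benjamini-Hochberg).

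*fbxc-39* (chrII:988737-991146, plus strand) siRNAs were at 67.7 to 359.6 CPM (median 253) in wild type, where replicate 1 was the low library. *fbxc-39* siRNAs were at 24.8, 57.2 and 37.8 CPM in the *pup-1(0)* libraries, 28.8, 27.7 and 19.7 in the double, 32.8, 35.1 and 30.5 in the triple and 30.9, 41.6 and 39.9 in the quadruple mutant. All of them lay below wild-type replicate 1 as well. By edgeR with Benjamini-Hochberg adjustment, the log2 fold change was -2.54 (SE 0.35, adjusted p = 3.97e-06) in *pup-1(0)*, -3.22 (SE 0.36, adjusted p = 4.30e-07) in the double mutant, -2.85 (SE 0.36, adjusted p = 1.79e-06) in the triple and -2.66 (SE 0.35, adjusted p = 2.26e-06) in the quadruple. The *pup-2(0)* and *pup-3(0)* libraries reached 248 to 384 and 353 to 489 CPM, and neither comparison passed the test.

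*fbxa-184* (chrII:1710259-1711417, plus strand) siRNAs were at 61.1 to 311 CPM (median 168) in wild type, a wide spread. *fbxa-184* siRNAs were at 9.92, 21.7 and 18.8 CPM in the *pup-1(0)* libraries, 30.6, 11.4 and 11.97 in the double, 14.1, 22.8 and 23.7 in the triple and 28.96, 46.7 and 31.5 in the quadruple mutant. None of these libraries overlapped wild type. In *pup-1(0)* the edgeR log2 fold change was -3.29 (SE 0.50, adjusted p = 1.89e-05), in the double -3.24 (SE 0.50, adjusted p = 2.47e-05), in the triple -3.04 (SE 0.50, adjusted p = 5.20e-05) and in the quadruple mutant -2.26 (SE 0.46, adjusted p = 4.96e-04), each adjusted by Benjamini-Hochberg. *fbxa-115* (chrV:20190535-20192152, minus strand) siRNAs were at 54.1 to 109.99 CPM (median 81.98) in wild type, and at 19.8, 19.3 and 19.98 CPM in the *pup-1(0)* libraries, 12.6, 9.51 and 8.93 in the double, 11.4, 10.6 and 18.6 in the triple and 25.8, 23.4 and 27.5 in the quadruple mutant. The groups did not overlap. edgeR gave a log2 fold change of -2.08 (SE 0.23, adjusted p = 1.73e-07) for *pup-1(0)*, -3.0 (SE 0.24, adjusted p = 4.36e-09) for the double, -2.59 (SE 0.24, adjusted p = 2.76e-08) for the triple and -1.70 (SE 0.22, adjusted p = 1.78e-06) for the quadruple mutant (Benjamini-Hochberg).

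*fbxa-120* (chrX:17302719-17304036, plus strand), chosen after its values were seen, had siRNAs at 133 to 319 CPM (median 163) in wild type and at 32.2 to 63.7 CPM in the 12 libraries that lacked *pup-1*. The highest of these lay below the lowest wild-type library. edgeR log2 fold changes were -1.74, -2.16, -2.23 and -2.42 in *pup-1(0)*, the double, the triple and the quadruple mutant, with edgeR adjusted p of 9.44e-06, 1.03e-06, 7.44e-07 and 1.63e-07. *fbxa-166*, chosen in the same way, had 141 to 295 CPM (median 170.1) in wild type. It fell in *pup-1(0)* to 89.9, 77.8 and 78.4 CPM, in the double to 69.9, 88.1 and 58.8 and in the triple mutant to 63.01, 67.8 and 51.8, with log2 fold changes of -1.21, -1.39 and -1.64 (edgeR adjusted p = 1.64e-05, 3.99e-06 and 6.30e-07). The quadruple mutant libraries, at 98.2, 105 and 107 CPM, also lay below wild type and did not pass the fold threshold. With replicates 2 and 3 of 6 genotypes only, the *pup-1(0)* value was -0.94 and the call was lost.

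Without any single library, and under every alternative that could be run, the calls of *fbxa-172*, *fbxa-150*, *fbxc-39*, *fbxa-184*, *fbxa-115* and *fbxa-120* in the 4 strains were kept.

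Other members at 100 CPM or more, named after their values were seen, fell in fewer strains. *fbxb-97* siRNAs were at 145 to 268 CPM (median 207) in wild type and 62.6, 99.5 and 79.2 CPM in *pup-1(0)*, without overlap, a log2 fold change of -1.37 (SE 0.22, adjusted p = 2.33e-05) by edgeR. *fbxa-10* siRNAs were at 95.2 to 241 CPM (median 151) in wild type and 71.3, 66.3 and 69.5 CPM in *pup-1(0)*, also without overlap, a log2 fold change of -1.21 (SE 0.20, adjusted p = 4.90e-05) by edgeR. With wild-type replicates 1 to 3 only, the value of *fbxa-10* was -0.73, with 6 factors of unwanted variation -0.96 and with replicates 2 and 3 of 6 genotypes only -0.86, and the call was lost. In the double mutant, *fbxb-6* siRNAs were at 89.2, 35.3 and 57.5 CPM against 127 to 251 CPM (median 151) in wild type, a log2 fold change of -1.42 (SE 0.23, adjusted p = 3.36e-05) by edgeR, and the groups did not overlap.

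*fbxb-45* siRNAs were at 72.6 to 244 CPM (median 161) in wild type, 92.7, 44.8 and 38.6 CPM in the double and 71.1, 76.7 and 85.9 CPM in the triple mutant. Wild-type replicate 1 was the low library, and both strains overlapped it. The log2 fold changes were -1.46 (SE 0.31, adjusted p = 6.86e-04) and -1.05 (SE 0.30, adjusted p = 0.00994) by edgeR. The triple mutant call was lost without triple mutant replicate 1, at -0.98, and without wild-type replicate 4, at -0.89. With 6 factors of unwanted variation, the values were -0.91 and -0.64 and both calls were lost. *fbxa-48* siRNAs were at 417 to 671 CPM (median 467) in wild type and 231, 252 and 252 CPM in the quadruple mutant, without overlap, a log2 fold change of -1.06 (SE 0.16, adjusted p = 8.50e-06) by edgeR. Scaled by total counts alone it was -0.76, with wild-type replicates 1 to 3 only -0.99, and the call was lost.

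Several of the largest fitted falls belonged to members of a few CPM, for which a ratio of summed counts is more direct than a fitted fold. *fbxa-37* siRNAs were at 1.32 to 10.6 CPM (median 2.47) in wild type, with the highest value in replicate 1. They were at 0, 0.163 and 0.217 CPM in *pup-1(0)* and 0, 0.315 and 0.130 CPM in the triple mutant, which did not overlap wild type, and at 0.166, 1.69 and 2.02 CPM in the double mutant, which did. The ratio of *pup-1(0)* to wild type was 0.0631 (95% interval 0.0128 to 0.189) and that of the triple mutant 0.0690 (95% interval 0.0140 to 0.206), with intervals that cover counting error only. The quadruple mutant libraries were at 0.589, 0.337 and 0.425 CPM. *fbxa-37* passed the filter only on libraries that carried *pup-1*, so these values are a description.

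*fbxa-43* siRNAs were at 4.43 to 15.5 CPM (median 8.92) in wild type, 0.620, 1.14 and 1.52 CPM in *pup-1(0)*, 3.81, 1.90 and 2.36 in the double and 0.670, 0.788 and 1.04 in the triple mutant, all below wild type. The quadruple mutant, at 2.95, 4.72 and 4.11 CPM, overlapped it. Against wild type, the log2 fold change was -2.84 (SE 0.42, adjusted p = 9.48e-06) in *pup-1(0)*, -1.70 (SE 0.37, adjusted p = 9.87e-04) in the double, -3.30 (SE 0.45, adjusted p = 3.85e-06) in the triple and -1.16 (SE 0.35, adjusted p = 0.0112) in the quadruple mutant (edgeR, Benjamini-Hochberg). Without quadruple mutant replicate 1 the last value was -0.98, and with total counts as the only scaling -0.84, and the call was lost. *fbxb-39* siRNAs were at 4.23 to 28.5 CPM (median 6.91) in wild type and at 0.506 to 3.58 CPM in the 12 libraries that lacked *pup-1*, without overlap. Their log2 fold changes were -1.94, -2.75, -2.25 and -2.87 in the same order of strains (edgeR adjusted p = 0.00569, 4.37e-04, 0.0027 and 1.61e-04), kept under every alternative that could be run.

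*fbxa-179* siRNAs were at 1.27 to 5.64 CPM (median 3.60) in wild type and 0, 0.158 and 0.261 CPM in the triple mutant, a ratio of 0.0439 (95% interval 0.00897 to 0.130). *fbxa-54* siRNAs were at 0 to 4.99 CPM (median 1.71) in wild type and 0.670, 0 and 0 CPM in the triple mutant, a ratio of 0.0301 (95% interval 0.000753 to 0.172). *fbxa-116* siRNAs were at 0 to 5.20 CPM (median 2.44) and 0.670, 0 and 0.130 CPM, a ratio of 0.0480 (95% interval 0.00574 to 0.177). Wild-type replicate 1 had no count of *fbxa-54* or *fbxa-116*, so the groups overlapped for these, while those of *fbxa-179* did not. *fbxa-4* siRNAs were at 0 to 7.53 CPM (median 4.69) in wild type and 0.670, 0.158 and 0.261 CPM in the triple mutant, a ratio of 0.0484 (95% interval 0.0131 to 0.126), and *fbxa-2* siRNAs at 0.705 to 4.16 CPM (median 2.33) and 0, 0 and 0.391 CPM, a ratio of 0.0720 (95% interval 0.0146 to 0.216). The groups overlapped for *fbxa-4* and not for *fbxa-2*. All 5 passed the filter only on libraries that carried *pup-1*, so their low values in the triple mutant are a description. *fbxa-89* had no count in the 3 *pup-1(0)* libraries and a mean of 1.09 CPM in wild type, at least 1.22-fold lower at the floor of 3 counts per library.

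*fbxa-181* siRNAs, at 2.12 to 10.1 CPM (median 5.12) in wild type and 0.662, 0.845 and 0.337 CPM in the double mutant, had a log2 fold change of -3.20 (SE 0.59, adjusted p = 1.68e-04) by edgeR there, without overlap. Their calls in *pup-1(0)* (-1.65) and the triple mutant (-1.76) were lost without mutant replicate 2, at -1.07 and -1.47, or 3, at -1.37 and -1.77.

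In the main fit, 4 members were called higher in at least 1 of the 4 strains, all of them *fbxa* genes. Of these, *fbxa-75* and *fbxa-182* passed the filter only on libraries that lacked *pup-1*. Over all sRNAs, 7.44, 8.65, 5.73 and 8.3% rose in the 4 strains in that fit. With the replicate block, or with wild-type replicates 1 to 3 only, more members rose in the quadruple mutant, as given above. *fbxa-75*, whose protein acts with the cullin CUL-6 and SKR adaptors in the response to intracellular pathogens, had siRNAs at 0.260 to 0.705 CPM (median 0.368) in wild type. They were at 0.620, 4.08 and 1.19 CPM in *pup-1(0)*, 2.15, 5.91 and 4.89 in the double, 0.670, 4.57 and 3.78 in the triple and 3.03, 2.26 and 2.76 in the quadruple mutant. The double and quadruple mutants lay above all wild-type libraries, and 1 library each of *pup-1(0)* and of the triple mutant overlapped them. In the other single mutants the level was 0 to 1.21 CPM. *fbxa-75* passed the filter only on libraries that lacked *pup-1*, so its higher level there is a description and no test is given.

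*fbxa-118* siRNAs rose in *pup-1(0)*, to 241, 179.5 and 95.4 CPM against 34.8 to 135 CPM (median 67.2) in wild type, a log2 fold change of 1.33 (SE 0.33, adjusted p = 0.00263) by edgeR. The groups overlapped, since wild-type replicate 1 was the highest of wild type and *pup-1(0)* replicate 3 lay below it. In the double mutant, *fbxa-125* siRNAs were at 8.11, 27.7 and 30.5 CPM against 2.85 to 10.6 CPM (median 8.85) in wild type, a log2 fold change of 1.55 (SE 0.51, adjusted p = 0.021) by edgeR. Replicate 1 of the double mutant lay within the wild-type range and the other libraries above it. The call was lost without double mutant replicate 2, at 1.38, or replicate 3, at 1.26, and with 6 factors of unwanted variation, at 0.67. *fbxa-182* siRNAs were at 0.166, 4.44 and 4.38 CPM in the double mutant, 0 to 0.657 CPM (median 0.288) in wild type and 0, 0.163 and 0.109 CPM in *pup-1(0)*. Here too replicate 1 of the double mutant lay within the wild-type range, and no test is given. *fbxa-118* and *fbxa-125* were named after their values were seen.

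The 4 comparisons share the 6 wild-type libraries, so the sharing of calls between them is given only as a count. Of the 135 members, 32 fell in all 4 strains, 20 *fbxa*, 5 *fbxb* and 7 *fbxc*, and 27 of the 32 pass the filter either way. With the replicate block 20 fell in all 4. Over all sRNAs tested 5.87%, and over all siRNAs 7.78%, fell in all 4, and 5.75% of all sRNAs that pass the filter either way. In at least 1 of the strains 74 fell and 4 rose, and 57 passed in none of the 4. The sign of the fitted change was negative in all 4 strains for 93 members and positive in all 4 for 8. The most frequent other patterns were a fall in the double mutant alone, with 9 members, and in *pup-1(0)*, the double and the triple mutant, with 7.

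Some members fell in strains with the *pup-1/-2* allele and were not called in *pup-1(0)*. *fbxb-16* and *fbxb-20* fell in the double, triple and quadruple mutants. *fbxb-16* siRNAs were at 7.05 to 47.5 CPM (median 31.6) in wild type, with replicate 1 the low library, and 16.1, 16.7 and 17.8 CPM in *pup-1(0)*. They were at 7.95, 7.82 and 8.09 CPM in the double, 11.4, 11.3 and 11.7 in the triple and 11.8, 10.9 and 10.1 in the quadruple mutant, below the other 5 wild-type libraries. The log2 fold changes were -1.94 (SE 0.30, adjusted p = 2.22e-05), -1.41 (SE 0.30, adjusted p = 6.69e-04) and -1.49 (SE 0.29, adjusted p = 2.20e-04) by edgeR. *fbxb-20*, which overlaps *fbxb-16* on the same strand, had 7.76 to 54.6 CPM (median 30.7) in wild type and 9.72 to 18.9 CPM in these 3 strains, with log2 fold changes of -1.29, -1.03 and -1.04 (edgeR adjusted p = 0.00309, 0.0173 and 0.0112). *fbxb-18* siRNAs were at 1.58 to 4.16 CPM (median 2.40) in wild type and 0 to 1.32 CPM in the 3 strains, and passed the filter only on libraries that carried *pup-1*. The calls of *fbxb-20* in the triple and quadruple mutants were each lost without at least 1 single library, at -1.0 to -0.81, and the latter with the replicate block, at -0.75. With 6 factors of unwanted variation the values of *fbxb-20* were -0.66, -0.64 and -0.61, and all 3 calls were lost.

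Many members lie next to each other. Members no more than 20 kb apart form 15 runs of at least 3 genes, which hold 67 of the 135. Chromosome II holds 58 members, 35 *fbxb*, 16 *fbxc* and 7 *fbxa*, chromosome V 36 and chromosome III 19. Of the 32 members that fell in all 4 strains 15 lie on chromosome II, 8 on V and 6 on III. The run with most genes, at chrII:913672-1001451, has 11: *fbxc-33*, *fbxc-29*, *fbxc-30*, *fbxc-28*, *fbxc-36*, *fbxc-32*, *fbxc-7*, *fbxc-14*, *fbxc-39*, *fbxc-42* and *fbxb-30*. Of these 5 fell in *pup-1(0)*, 7 in the double, 6 in the triple and 5 in the quadruple mutant. The median log2 fold changes of the 11 were -1.82, -2.37, -2.10 and -1.51. Over all sRNAs, 13.5, 12.5, 11.9 and 12.9% fell. *fbxc-33* is in all 4 counts, *fbxb-30* in those of the double and triple and *fbxc-14* in that of the double mutant. None of them passes the filter on the libraries that lacked *pup-1* alone, so their falls are a description. The members of a run are neighbours and may be alike in sequence, so they are not independent of each other.

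Within this run, 5 genes fell in all 4 strains, *fbxc-33* among them, and the levels were far from even. *fbxc-39*, described above, and *fbxc-42*, with 47.1 to 121 CPM (median 105) in wild type and 12.1 to 32.7 CPM in the 12 libraries that lacked *pup-1*, are neighbours at its end. For *fbxc-42*, log2 fold changes were -2.30, -2.37, -2.54 and -1.51 in *pup-1(0)*, the double, the triple and the quadruple mutant (edgeR adjusted p = 4.12e-07, 4.23e-07, 2.41e-07 and 4.79e-05). *fbxc-28* siRNAs were at 36.7 to 91.2 CPM (median 54.2) in wild type and 4.05 to 20.4 CPM in the same 12 libraries, with log2 fold changes of -2.03, -2.83, -2.10 and -2.04 (edgeR adjusted p = 4.07e-05, 1.57e-06, 4.04e-05 and 3.06e-05). Neither gene's groups overlapped.

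*fbxc-30* siRNAs were at 5.64 to 35.9 CPM (median 16.5) in wild type and 0.620 to 7.49 CPM in those libraries, which overlapped. Their log2 fold changes were -1.82, -2.77, -2.14 and -1.77, and with wild-type replicates 1 to 3 only the calls in *pup-1(0)*, the triple and the quadruple mutant were lost, at -0.96, -1.29 and -0.91, and with the replicate block that in the quadruple mutant, at -0.86. *fbxc-33* siRNAs were at 1.90 to 5.98 CPM (median 4.14) in wild type and 0 to 1.43 CPM in those libraries, without overlap, and passed the filter only on libraries that carried *pup-1*. *fbxc-7*, with the highest level in the run, and *fbxc-29*, *fbxc-32* and *fbxc-36* passed in none of the 4 strains. *fbxc-14* was called lower in the double mutant and *fbxb-30* in the double and triple mutants, both at under 3 CPM in each wild-type library. Neither passes the filter on the libraries that lacked *pup-1* alone, so no test is given.

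**Figure D4:**
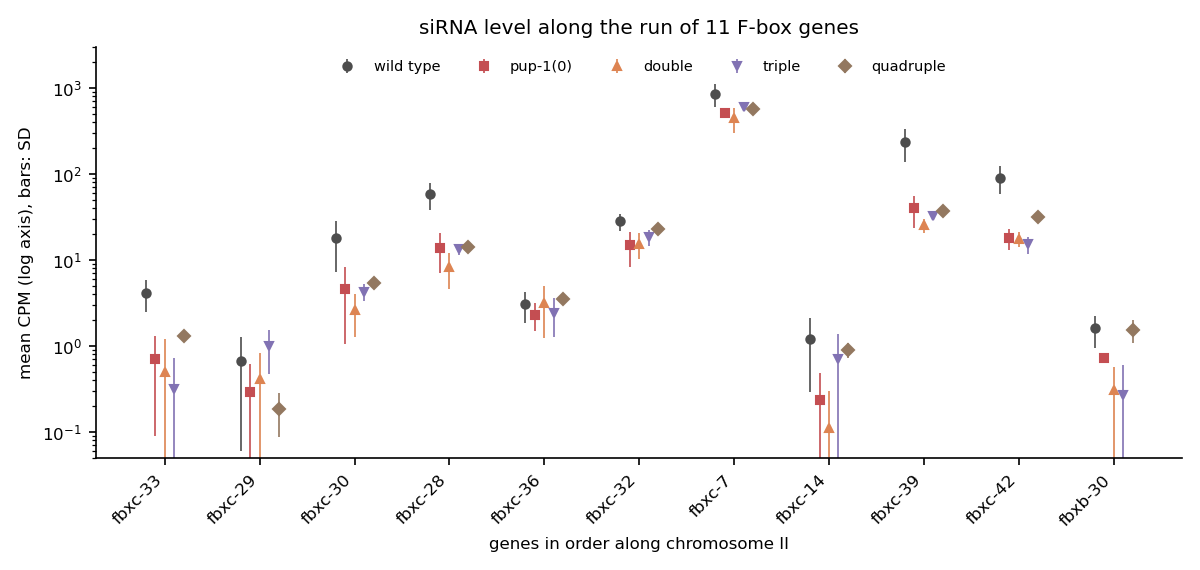
Mean siRNA level (CPM, log axis) of the 11 genes of the run on chromosome II, in gene order, in wild type (6 libraries) and the 4 strains that lacked *pup-1* (3 libraries each); bars are SD and are cut at the bottom of the axis. The coloured symbols lie below the grey wild-type symbol for all 4 strains at *fbxc-39*, *fbxc-42* and *fbxc-28*, whose log2 fold changes run from -1.51 to -3.22.

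The next run, of 9 genes at chrII:1676388-1725693, holds *fbxb-17*, *fbxb-26*, *fbxb-25*, *fbxb-18*, *fbxc-21*, *fbxc-26*, *fbxb-47*, *fbxa-184* and *fbxb-11*. In the double mutant 7 of them fell, and 3 fell in *pup-1(0)*, 5 in the triple and 3 in the quadruple mutant. *fbxb-18*, counted in the double, triple and quadruple mutants, and *fbxc-21*, counted in the double, passed the filter only on libraries that carried *pup-1*. Their falls are a description. Just before this run, at chrII:1647908-1653497, *fbxb-21*, *fbxb-20*, *fbxb-16* and *fbxb-15* all fell in the double and the triple mutant, 3 of the 4 fell in the quadruple mutant and 1, *fbxb-21*, fell in *pup-1(0)*. Over all sRNAs, 13.5% fell in *pup-1(0)*, 12.5% in the double, 11.9% in the triple and 12.9% in the quadruple mutant. Not all runs held called members. The 4 genes *fbxb-60*, *fbxb-62*, *fbxb-63* and *fbxb-64* at chrV:19297810-19316512 were at 0.965 to 8.56 CPM in wild type on average, and were not called in any of the 4 strains. Their median log2 fold changes were -0.42, -0.62, 0.67 and 0.44 in *pup-1(0)*, the double, the triple and the quadruple mutant. At levels this near the floor of the shallower libraries, a change could go uncalled.

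Loss of *pup-2*, *pup-3* or *pup-4* alone changed few F-box siRNAs. In *pup-2(0)* 1 of 135 rose, against 0.332% of all sRNAs, in *pup-3(0)* 1 fell, against 0.145%, and in *pup-4(0)* edgeR called 0, against 0.0518% of all sRNAs in either direction. In *pup-4(0)*, 12 members had an unadjusted p under 0.05, and DESeq2 also called 0. With wild-type replicates 1 to 3 only, 4 were called in *pup-4(0)*. With wild-type replicates 4 to 6 only, 5 were called in *pup-2(0)*, all lower, and 10 in *pup-3(0)*, 8 of them lower. The median log2 fold change of the members was 0.05, -0.15 and -0.04, and each of these medians changed sign in at least 1 alternative.

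*fbxb-11* was the member that rose in *pup-2(0)*. Its siRNAs were at 1.58 to 11.2 CPM (median 5.23) in wild type and 13.1, 17.05 and 18.4 CPM in *pup-2(0)*, above all wild-type libraries, a log2 fold change of 1.49 (SE 0.34, adjusted p = 0.037) by edgeR. The call was lost in 19 of the 27 fits that leave out 1 library, at values from 1.39 to 1.62. In the quadruple mutant *fbxb-11* was not called, and with the replicate block it was called higher, at 1.36 (edgeR adjusted p = 0.0091). *fbxb-60* siRNAs had no count in the 3 *pup-3(0)* libraries, where the floor was 0.316 to 3.74 CPM, and were at 0 to 1.82 CPM (median 0.989) in wild type (edgeR adjusted p = 0.0235). Wild-type replicate 1 had no count either, and the wild-type mean of 0.965 CPM lay above the mean wild-type floor of 0.788 CPM and below the mean *pup-3(0)* floor of 1.56 CPM, so no fold is given. Without *pup-3(0)* replicate 2 or 3 the call was lost.

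The steps between strains asked what a further loss added. Between *pup-1(0)* and the double mutant, 2 members rose and 2 fell, against 3.33% and 0.788% of all sRNAs. *fbxa-153* siRNAs were at 8.06, 11.9 and 10.5 CPM in *pup-1(0)* and 24.7, 24.1 and 22.6 CPM in the double mutant, a log2 difference of 1.20 (SE 0.33, adjusted p = 0.0334) by edgeR, and did not overlap. The call was lost without any 1 of the *pup-1(0)* libraries or double mutant replicate 2 or 3, at 1.07 to 1.33. The other rise was *fbxa-182*, described above with no test. *fbxa-136* siRNAs were at 108, 152 and 162 CPM in *pup-1(0)* and 16.9, 68.2 and 66.3 CPM in the double mutant, a log2 difference of -1.49 (SE 0.35, adjusted p = 0.0138) by edgeR. Without *pup-1(0)* replicate 3 it was -1.38 and not called. They were at 74.00 to 157 CPM (median 86.9) in wild type, and the triple mutant, at 40.2, 42.5 and 46.03 CPM, was the 1 strain called against wild type, at -1.16 (SE 0.32, adjusted p = 0.00663) by edgeR, and at -0.99, not called, without wild-type replicate 1. *fbxb-16* siRNAs differed by -1.09 (SE 0.33, adjusted p = 0.0474) by edgeR, a call lost in 26 of the 27 fits that leave out 1 library.

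From the double to the triple mutant edgeR called 0 members, against 0.487% of all sRNAs, while 23 had an unadjusted p under 0.05 and DESeq2 called 1. From the triple to the quadruple mutant 1 rose, against 0.363%. It was *fbxa-43*, at 0.670, 0.788 and 1.04 CPM in the triple and 2.95, 4.72 and 4.11 CPM in the quadruple mutant, a log2 difference of 2.14 (SE 0.46, adjusted p = 0.0271) by edgeR, without overlap; the call was lost without any 1 of the triple mutant libraries or quadruple mutant replicate 2 or 3, at 1.98 to 2.35. The change on loss of *pup-3* was called different between the double mutant background and wild type for 1 member, *fbxb-60* (edgeR adjusted p = 0.023, lost in 7 of the 27 fits that leave out 1 library), against 0.653% of all sRNAs. Its siRNAs were at 1.49, 0.634 and 1.35 CPM in the double and 2.01, 1.89 and 1.43 CPM in the triple mutant, and without a count in *pup-3(0)*. For loss of *pup-4*, edgeR called 0 members different between wild type and the triple mutant background, against 0.166% of all sRNAs, 17 had an unadjusted p under 0.05 and DESeq2 called 1. These counts changed with the settings, as given with the alternatives.

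The siRNAs of a wider list of ubiquitin ligase genes were called in both directions. The 41 genes were the SKR adaptors, the cullins, their RING subunits and regulators, and F-box or receptor genes with other names. Not all of them are SCF parts, as *cul-2* and *cul-5* are scaffolds of another class of ligases. Of the 41, 28 were in the table and 24 were tested. In *pup-1(0)* 5 rose and 2 fell, in the double mutant 2 rose and 4 fell, in the triple mutant 4 rose and 3 fell and in the quadruple mutant 6 rose and 3 fell. The median log2 fold changes were -0.25, -0.22, 0.01 and -0.16. Over all sRNAs, 7.44, 8.65, 5.73 and 8.3% rose and 13.5, 12.5, 11.9 and 12.9% fell in the same comparisons. *skr-7* and *skr-19* passed the filter only on libraries that carried *pup-1*, and *cul-6* only on libraries that lacked it. Their part in these counts is a description. The list was drawn up with earlier results known.

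Among the genes that rose were other substrate receptors and scaffolds. *lin-23*, an F-box gene that limits cell division, had siRNAs at 48.3 to 80.2 CPM (median 72.5) in wild type and 167, 174 and 189 CPM in *pup-1(0)*, 176, 106 and 132 in the double, 124, 138 and 143 in the triple and 138, 166 and 166 in the quadruple mutant. All 4 strains lay above wild type. In *pup-1(0)* the edgeR log2 fold change was 1.39 (SE 0.16, adjusted p = 2.52e-07), in the double 1.03 (SE 0.16, adjusted p = 2.15e-05), in the triple 1.01 (SE 0.16, adjusted p = 3.29e-05) and in the quadruple mutant 1.22 (SE 0.16, adjusted p = 1.87e-06), each adjusted by Benjamini-Hochberg. The double mutant call was lost without double mutant replicate 1 or wild-type replicate 1 or 4, at 0.81, 0.95 and 0.95. The triple mutant call was lost without triple mutant replicate 2 or 3 or wild-type replicate 1 or 4, at 0.99, 0.97, 0.93 and 0.94.

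*prom-1*, an F-box gene needed for meiotic chromosome pairing, had siRNAs at 8.57 to 16.3 CPM (median 12.4) in wild type and 20.7 to 43.2 CPM in the 12 libraries that lacked *pup-1*, without overlap. edgeR log2 fold changes were 1.58, 1.04, 1.57 and 1.54 (edgeR adjusted p = 2.02e-06, 4.19e-04, 3.24e-06 and 2.54e-06). The double mutant call was lost without double mutant replicate 1, at 0.85, or wild-type replicate 4, at 0.95. *cul-2*, a scaffold of another class of ubiquitin ligases, had siRNAs at 64.4 to 146 CPM (median 115) in wild type and 295, 281 and 253 CPM in *pup-1(0)*, which is a log2 fold change of 1.35 (SE 0.19, adjusted p = 5.94e-06) by edgeR. It was also called in the triple (1.16) and the quadruple mutant (1.11), the latter lost without wild-type replicate 1, at 0.95, or 4, at 0.93. *cul-5*, a scaffold of the same kind, had 45.8 to 92.6 CPM (median 75.4) in wild type and 182, 186 and 226 CPM in *pup-1(0)*, which is a log2 fold change of 1.44 (SE 0.16, adjusted p = 1.14e-07) by edgeR, and was called in the triple (1.07) and the quadruple mutant (1.31). The triple mutant call of *cul-5* was lost without wild-type replicate 1, at 0.96.

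The adaptor genes that were called had lower levels. *skr-3* siRNAs were at 3.90 to 12.7 CPM (median 4.94) in wild type, 0.620, 0.327 and 0 CPM in *pup-1(0)*, 0.993, 0.422 and 1.69 in the double, 1.34, 0.630 and 0.391 in the triple and 1.09, 2.26 and 3.12 in the quadruple mutant, all below wild type. edgeR gave a log2 fold change of -4.89 (SE 0.86, adjusted p = 7.62e-05) for *pup-1(0)*, -2.59 (SE 0.65, adjusted p = 0.00295) for the double, -3.29 (SE 0.73, adjusted p = 0.00115) for the triple and -1.55 (SE 0.57, adjusted p = 0.0355) for the quadruple mutant (Benjamini-Hochberg). The quadruple mutant call was lost without quadruple mutant replicate 1 or 2 or wild-type replicate 6, at -1.24, -1.58 and -1.41. *skr-7* siRNAs were at 1.76 to 4.16 CPM (median 2.83) in wild type and 0.490 to 1.69 CPM in the 12 libraries, without overlap, and passed the filter only on libraries that carried *pup-1*, so no test is given. *skr-18*, *skr-19* and *skr-21* were each called lower in 1 strain, *skr-19* after passing the filter only as *skr-7* did. The RING subunit gene *rbx-1*, named after its values were seen, was at 32.7 to 63.6 CPM in wild type. In the double mutant it was at 28.8, 16.7 and 21.9 CPM, without overlap. *cul-6*, the scaffold that acts with FBXA-75, named after its values were seen, was at 0 to 0.705 CPM (median 0.304) in wild type and at 1.60, 1.35 and 1.98 CPM in the quadruple mutant, the libraries through which it passed the filter.

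**Figure D5:**
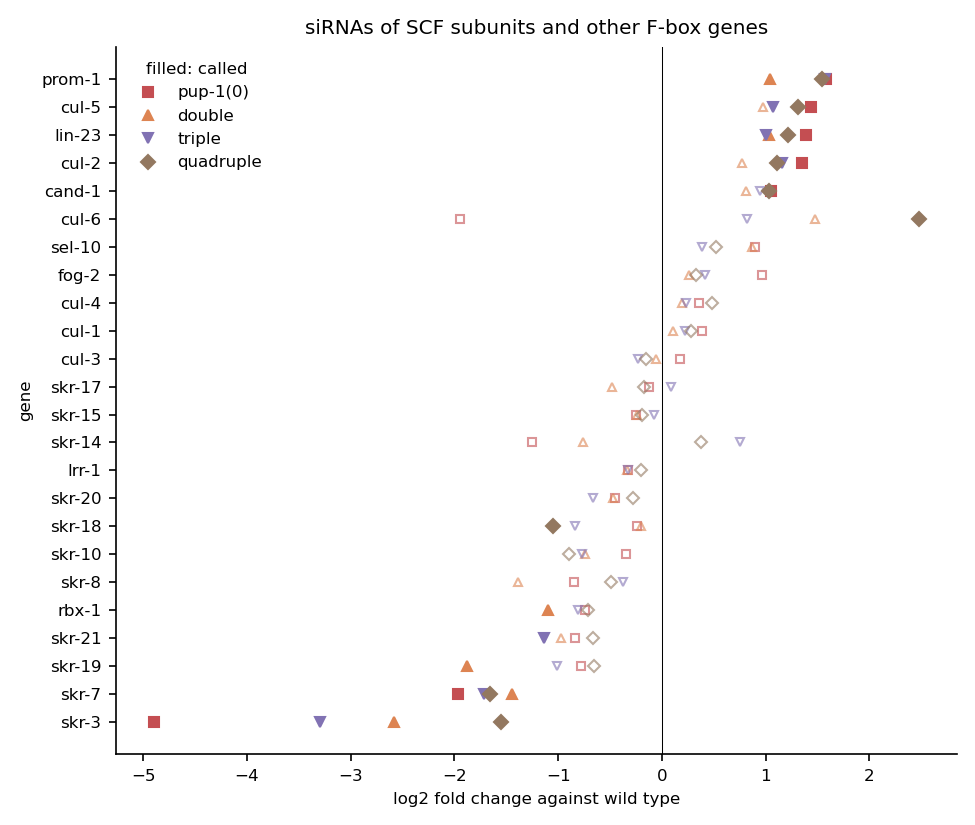
Log2 fold change against wild type of the siRNAs of 24 genes of the SCF list in the 4 strains that lacked *pup-1*, in order of the mean change. Filled symbols are called and open symbols are not. *skr-3* has filled symbols below 0 and *lin-23* and *prom-1* filled symbols above 0 in all 4 strains. *skr-7*, also filled below 0 in all 4, and *skr-19* passed the filter only on libraries that carried *pup-1*. *cul-6* passed only on libraries that lacked it, so the symbols of these genes are a description.

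The 73 F-box genes in the table that the filter left out had 1 to 188 counts over the 27 libraries, with a median of 43 and at most 24 in a library. Their siRNAs were near the limit of these libraries, and differences between genotypes were not tested for them.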

How the data were processed

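Small RNA libraries of 8 genotypes were analysed from 1 deposited table. Per the paper's methods and the labels, the authors trimmed reads with cutadapt, aligned them by HISAT2 and used smalldisco for counting. The deposited values are raw counts of 20150 sRNAs in 27 libraries, and the siRNA count of a gene sums the reads that lie antisense to its coding sequence. The versions of HISAT2 and cutadapt are not given in the sources used here. Reads with and without 3′ tails are counted together. Gene symbols, classes and positions came from the Ensembl 115 annotation of WBcel235, which matched 20147 of the 20150 identifiers and is not the release used for counting. No sequence is shown.

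The software was edgeR 4.0.16 under R 4.3.3, its dependency limma (3.58.1), DESeq2 (1.42.0) and, for figures, matplotlib 3.10.9 with pandas 2.3.3. sRNAs were kept by filterByExpr (minimum count 10, genotypes as groups), scaled by TMM and fitted in 1 robust quasi-likelihood model with genotype as its only term. Totals of 972048 to 17562388 counts per library set the precision, and floors of 3 counts and intervals cover counting error only. The comparisons were each mutant against the 6 wild-type libraries, the 3 steps between strains that lacked *pup-1*, and the difference of the *pup-3(0)* and *pup-4(0)* effects between backgrounds. The authors' methods name EDASeq and RUVSeq with 6 factors but no functions, so TMM was the main scaling and 6 factors estimated from replicate groups an alternative. The other alternatives were DESeq2, its size factors, total counts, siRNAs alone, a minimum count of 50, at least 10 CPM in 3 libraries, no filter, a replicate block, wild-type replicates 1 to 3 or 4 to 6 only, and leaving out each library. Chosen after seeing the data were a fit without the 5 libraries of under 2100000 counts and a fit of replicates 2 and 3 of 6 genotypes only.

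The members, gene lists and rules were chosen with earlier results of these data known. By rule, the text names the 8 members of highest wild-type level, the 4 largest rises and falls without overlap in each strain that lacked *pup-1*, at most 3 calls in each direction of the other comparisons, at most 8 members called in all 4 strains, and at most 6 genes of the SCF list called in at least 2 of them. Any other gene is named as chosen after its values were seen, or where a small count or a run is spelled out. In simulated data with 200 of 9645 sRNAs changed by a log2 fold change of 2 in the comparison of *pup-1(0)* with wild type, 135 were recovered, 0 in the wrong direction, with 1 false call. Over 21 pairs of same-numbered mutant and wild-type libraries the correlation of deviations from the genotype means ran from -0.177 to 0.429, with 6 over 0.1. All 3 pairs of the quadruple mutant were among these, at 0.429, 0.162 and 0.191. Its replicate 3 was closer to wild-type replicate 2, at 0.315, and its replicate 2 was as close to wild-type replicate 3, at 0.161. The labels give no pairing, so a pairing by number is uncertain. The quadruple mutant's results come from the unpaired fit, with the replicate block given beside them where it changes them. In the other 6 strains and in the 3 steps between strains at least 1 pair was under 0.1.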

Additional observations from a re-analysis of the deposited data

Results flagged for a closer look

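In the 6 wild-type libraries, the gap between an extreme library and its nearest neighbour was compared with the whole range for 39 values, the levels of the named F-box and SCF siRNAs and the summed levels, against Dixon's critical value. Chance passes about 1 in 20 such values, and 6 passed, 5 of them at replicate 1. *fbxb-98* siRNAs had a ratio of 0.650, with 5924 CPM in replicate 1 against 2243 to 3529.6 in the other libraries. *fbxa-172* siRNAs had 0.831, with 2915 CPM against 1087 to 1396. *fbxa-107* siRNAs had 0.710, with 2799 CPM against 678 to 1293. *fbxa-37* siRNAs had 0.788, with 10.6 CPM against 1.32 to 3.28, and *fbxa-136* siRNAs 0.737, with 157 CPM against 74.0 to 95.9. *fbxb-75* siRNAs had 0.729 at replicate 2, with 1772 CPM against 144 to 586.

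The change of *fbxb-60* siRNAs on loss of *pup-3* differed between the double mutant background and wild type, with a fitted log2 difference of 6.58 by edgeR. That value depends on the prior count, because the 3 *pup-3(0)* libraries held no count, and it is no bound.

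Among the members under the filter, 37 had a mean in at least 1 mutant strain above that strain's mean floor of 3 counts and above a wild-type mean that was itself under its floor. The highest was *fbxa-135*, at 1.76 CPM in the double mutant against 0.154 CPM in wild type. No test was made on these rows.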

How the results depend on the processing

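Falls outnumbered rises among the F-box siRNAs in each of the 4 strains that lacked *pup-1* under every alternative run, and their median log2 fold change stayed below 0. Leaving out 1 library gave 43 to 61 called members in *pup-1(0)* (55 with all libraries), 52 to 72 in the double (64), 45 to 57 in the triple (52) and 35 to 53 in the quadruple mutant (43), and 26 to 35 shared by all 4 in direction (33). It gave 0 to 3 in *pup-2(0)*, 0 to 2 in *pup-3(0)* and 0 to 0 in *pup-4(0)*, 0 to 21 from *pup-1(0)* to the double mutant, with 21 without double mutant replicate 1, 0 to 5 from the double to the triple, 0 to 3 from the triple to the quadruple, 0 to 5 for the *pup-3(0)* effect between backgrounds and 0 to 0 for the *pup-4(0)* effect. Median log2 fold changes over the other settings ran from -1.34 to -0.57 in *pup-1(0)*, -1.35 to -0.78 in the double, -1.11 to -0.50 in the triple and -0.92 to -0.46 in the quadruple mutant.

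Other settings moved counts by more than 1.5 times. Replicates 2 and 3 of 6 genotypes only gave 33 in *pup-1(0)*, 5 in *pup-2(0)*, 27 from *pup-1(0)* to the double, 8 from the double to the triple and 13 for the *pup-3(0)* effect, and could give no value with *pup-4(0)* or the quadruple mutant. A minimum of 10 CPM gave 42 in the double mutant, 0 in *pup-3(0)*, 2 from *pup-1(0)* to the double and 0 for the *pup-3(0)* effect. Total counts gave 27 in the quadruple mutant, 0 in *pup-2(0)* and 1 from *pup-1(0)* to the double. With 6 factors the counts were 3 in *pup-2(0)*, 2 in *pup-3(0)*, 11, 7 and 5 for the 3 steps in turn, 8 for the *pup-3(0)* and 5 for the *pup-4(0)* effect. DESeq2 gave 3, 3, 8, 1, 3, 2 and 1 for the same values. A minimum count of 50 gave 0 in *pup-3(0)*, 2 from *pup-1(0)* to the double and 0 for the *pup-3(0)* effect, no filter gave 0 in *pup-2(0)* as well, and siRNAs alone gave 2 from the triple to the quadruple. Wild-type replicates 1 to 3 gave 21 shared by the 4 strains, 4 in *pup-4(0)*, 2 in *pup-2(0)*, 0 in *pup-3(0)*, 4 from the triple to the quadruple and 0 for the *pup-3(0)* effect. Wild-type replicates 4 to 6 gave 5 in *pup-2(0)*, 10 in *pup-3(0)*, 11, 2 and 5 for the steps, 16 for the *pup-3(0)* and 2 for the *pup-4(0)* effect. Without the 5 shallow libraries there were 4 in *pup-2(0)*, 12 from *pup-1(0)* to the double, 5 from the triple to the quadruple and 3 for the *pup-3(0)* effect. The cause of these moves was not tested. With total counts the median of all sRNAs shifted by 0.101 in *pup-1(0)*, -0.195 in *pup-3(0)*, 0.226 in *pup-4(0)*, 0.240 in the triple and 0.296 in the quadruple mutant.

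With the replicate number as a block, 37 were called in *pup-1(0)*, 44 in the double, 45 in the triple and 38 in the quadruple mutant, of which 10 rose and 28 fell. The block gave 20 shared by the 4 strains, 4 in *pup-4(0)*, 2 in *pup-2(0)*, 0 in *pup-3(0)*, 3 from the triple to the quadruple and 0 for the *pup-3(0)* effect. Only in the quadruple mutant against wild type did all 3 same-numbered pairs correlate over 0.1, and that pairing is uncertain.

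Of 141 called values of named siRNAs, 98 kept the call without any single library. Over 1696 other alternative fits of these values, 184 were not called and 0 changed direction. The check by gene was limited to called values after changes of sign were seen among the rest. Of 243 uncalled named values, 142 of 9435 fits gave a call of the same sign and 478 had the other sign. Of the latter 1 was called, *fbxb-75* in the double mutant with wild-type replicates 4 to 6 only, at a log2 fold change of 1.13. Depth limits the scarce members most, since 3 counts were 3.74 CPM in the shallowest library.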
